A study of Mus musculus with 24 samples.

Results

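The 269 genes described here were higher in cisplatin-treated ID8 Trp53-/- cells than in vehicle-treated cells, and low again when AU-15330 was given together with cisplatin. They were chosen from 25229 genes by their mean CPM, the reads of a gene as a share of all reads counted in its library, scaled to counts per 1000000, over the 6 libraries of a group. A member had a cisplatin mean of at least 1 CPM and at least 3 times that of DMSO, a DMSO mean below 5 CPM and a combination mean of at most 1/3 of the cisplatin mean. Rsad2, Il18 and the chemokine, Oas, Ifit, Hox, Dlx, collagen, integrin, laminin and Mmp families were left out by name, which removed 16 genes that met the same thresholds. The values with cisplatin, DMSO and the combination thus chose the members, and the differences among these 3 groups are given without a test. Tests are given only against the AU-15330 libraries, which the rule did not use, and the DMSO or combination libraries on the other side of each test were chosen low. Another 269 genes, by coincidence the same number, met the cisplatin and DMSO thresholds and were not blocked. They are called the unblocked genes and serve for comparison.

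ID8 is a mouse ovarian cancer line derived from the ovarian surface epithelium of C57BL/6 mice, and in the derivative used here Trp53, which encodes the tumor suppressor p53, is disrupted (labelled P53 KO). Cells of all groups carried this disruption and were kept for 6 days with DMSO, with 2.5 uM AU-15330, with 750 nM cisplatin, or with both drugs at these doses. The study's methods name another cisplatin concentration for these cells than the labels do. Each group held 6 libraries, numbered 1 to 6. The labels and the methods text read here do not say whether these replicates were separate cultures, so p-values measure the spread between these libraries, which may be technical. Between 17592588 and 25260009 reads were counted per library, and 3 reads corresponded to between 0.119 and 0.171 CPM, which allows for counting error alone. The epithelial and mesothelial genes Krt8 (226 to 643 CPM) and Wt1 (513 to 1063 CPM) were high in every library. Other genes of that list were not, and with AU-15330 alone Krt19 averaged 7.22 CPM against 1679 with DMSO, Upk3b 0.509 against 43.0 and Msln 120.6 against 494.5. Epcam and Pax8 averaged at most 0.308 CPM in any group. The mRNA of Smarca4 averaged 230.4 CPM with DMSO and 398.9 with AU-15330, and since the drug acts on the protein, these levels do not check the treatment.

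Cisplatin forms platinum crosslinks in DNA. AU-15330 is a PROTAC, a bivalent molecule that brings a target to a ubiquitin ligase, and it directs SMARCA4 and SMARCA2, the ATPases of the SWI/SNF complex, to the proteasome. SWI/SNF uses ATP to move or evict nucleosomes and thereby keeps enhancers and promoters open to transcription factors. Interferon-stimulated genes are switched on through the interferon-stimulated response element (ISRE), a sequence bound by IRF factors, and their products include GTPases and nucleic acid sensors that act against viruses and intracellular parasites. A separate group of mouse gene families, among them Zscan4 and Usp17l, is known for its brief expression in early embryos at the time the embryonic genome is activated.

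The promoters of 6 members are shown because they belong to the gene pairs that the results below return to. Each is the RefSeq window (build GRCm38.p6) from 250 bases before to 50 bases after the annotated start, read in the direction of the gene. For Apol9a (chr15:77411031-77411330, minus strand), Apol9b (chr15:77728822-77729121, plus strand), Tgtp1 (chr11:48992197-48992496, minus strand) and Tgtp2 (chr11:49064163-49064462, minus strand), capitals mark the ISRE core (GAAA, any 2 bases, GAAA), which appears as its reverse complement in both Apol9 genes.
Apol9a: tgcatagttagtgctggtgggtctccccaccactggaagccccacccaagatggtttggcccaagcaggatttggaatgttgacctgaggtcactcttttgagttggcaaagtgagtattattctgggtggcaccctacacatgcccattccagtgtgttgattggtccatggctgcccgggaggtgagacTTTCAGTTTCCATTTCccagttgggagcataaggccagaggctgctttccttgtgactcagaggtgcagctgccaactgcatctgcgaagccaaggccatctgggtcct
Apol9b: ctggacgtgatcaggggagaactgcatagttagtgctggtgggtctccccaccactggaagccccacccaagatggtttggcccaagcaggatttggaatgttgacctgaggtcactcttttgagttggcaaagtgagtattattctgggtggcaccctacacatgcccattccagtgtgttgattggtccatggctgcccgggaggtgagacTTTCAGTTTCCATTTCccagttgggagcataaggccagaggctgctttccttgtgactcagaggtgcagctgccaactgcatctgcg
Tgtp1: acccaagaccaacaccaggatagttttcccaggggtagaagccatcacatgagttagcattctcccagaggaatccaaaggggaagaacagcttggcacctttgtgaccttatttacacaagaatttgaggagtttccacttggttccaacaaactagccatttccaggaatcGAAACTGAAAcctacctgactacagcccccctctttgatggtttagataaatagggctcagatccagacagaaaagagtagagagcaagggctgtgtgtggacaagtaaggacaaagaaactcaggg
Tgtp2: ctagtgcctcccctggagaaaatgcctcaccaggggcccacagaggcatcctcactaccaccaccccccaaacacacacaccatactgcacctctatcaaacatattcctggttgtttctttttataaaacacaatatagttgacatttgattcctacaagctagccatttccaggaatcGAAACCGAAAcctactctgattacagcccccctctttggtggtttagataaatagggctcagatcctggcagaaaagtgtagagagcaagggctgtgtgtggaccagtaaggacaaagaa
In the Apol9a window 2 overlapping ISRE cores began 59 and 53 bases before the start, and in Apol9b the same pair began 37 and 31 bases before it. Both windows shared an unbroken identical run of 278 bases, so the ISRE pair and its surroundings are the same sequence at both genes. The single core of Tgtp1 began 77 bases before the start and that of Tgtp2 70 bases before it.
For Zscan4c (chr7:11005495-11005794, plus strand) and Zscan4d (chr7:11166099-11166398, minus strand), capitals mark the TATA box letters TATAAA.
Zscan4c: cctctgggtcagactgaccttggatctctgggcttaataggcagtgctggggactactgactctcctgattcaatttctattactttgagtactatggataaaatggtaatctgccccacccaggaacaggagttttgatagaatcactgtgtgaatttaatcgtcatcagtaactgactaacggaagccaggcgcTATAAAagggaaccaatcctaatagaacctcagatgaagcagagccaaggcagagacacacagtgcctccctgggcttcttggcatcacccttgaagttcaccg
Zscan4d: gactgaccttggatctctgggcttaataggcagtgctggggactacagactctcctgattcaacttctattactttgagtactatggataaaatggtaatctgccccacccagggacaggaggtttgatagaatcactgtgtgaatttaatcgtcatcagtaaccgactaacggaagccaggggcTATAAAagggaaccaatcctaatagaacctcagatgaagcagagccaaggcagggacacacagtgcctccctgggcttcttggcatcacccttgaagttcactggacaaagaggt
These letters began 54 bases before the start of Zscan4c and 65 bases before that of Zscan4d.

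RefSeq listed promoter windows for 189 of the 269 members, 240 windows in all. Searched on both strands, the ISRE core was present in 12.5% of them, against 3.09% of 13027 windows of tested genes, 3.44% of all 32851 windows and 10.4% of 249 windows of the unblocked genes. It was found in 18 of 26 windows (69.2%) of members with an interferon or apolipoprotein L role, and in 10 of 205 (4.88%) of the members with neither that nor an early-embryo role. The AP-1 letters TGANTCA, which overlapped no ISRE core in the members' windows, were present in 11.2% of members' windows, 5.37% of windows of tested genes and 8.03% of those of unblocked genes. TATAAA was present in 15.8%, 7.39% and 8.03% of the same sets. Over all windows, AP-1 letters were present in 7.81% and TATAAA in 13.6%, the latter close to the members' share. The E-box CACGTG was less frequent in members' windows (4.17%) than in those of tested genes (9.76%), unblocked genes (6.43%) and all windows (7.15%). The TEAD letters GGAATG, the last of the 5 motifs searched, were present in 19.6% of members' windows, 12.3% of those of tested genes, 13.7% of those of unblocked genes and 14.7% of all windows. Member promoters were poor in CpG dinucleotides. Their median ratio of observed to expected CpG was 0.293, compared with 0.748 for tested genes, 0.598 for unblocked genes and 0.384 for all windows. These are counts of letters in a fixed window and are given without a test.

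Members had low levels in vehicle-treated cells, as the rule required. The DMSO mean was below 1 CPM in 206 of 269 members, with a median of 0.418 CPM, and the cisplatin mean had a median of 2.86 CPM and reached at least 10 CPM in 46. The median ratio of cisplatin to DMSO was 6.70, and that of cisplatin to combination 14.2, with genes at 0 counts set to a floor of 3 counts over their group. Because the rule used these contrasts, the following counts describe the choice only. All 6 cisplatin libraries were above all 6 DMSO libraries in 262 members (16.9% of all tested genes), and above all 6 combination libraries in 267 members (23.7% of tested genes). When the rule was applied to 5 replicate numbers and read in the libraries of the sixth, 72.6% to 87.4% of the genes so chosen met both 3-fold criteria there. In RNA from bulk cultures, fewer cells that express a gene and less RNA per cell cannot be told apart.

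The members nearest to each limit of the rule, and the genes that just missed it, were as follows. Just inside the cisplatin limit were Ly6c1 (1.01 CPM), Sh3bgr and Tmem132d (both 1.02 CPM), and just outside were Tff1 (0.996 CPM), Fgd2 (0.991 CPM) and Cacng8 (0.978 CPM). The cisplatin to DMSO ratio was 3.00 for Fads6, 3.01 for Alppl2 and 3.02 for Tgm5, and just missed with 3.00 for Cacna2d4, 2.96 for Pecam1 and 2.87 for Lrrc14b. The DMSO limit kept Alppl2 (4.92 CPM), S1pr5 (4.79 CPM) and Dpysl5 (4.70 CPM) and left out Myzap (5.09 CPM), Rnf122 (5.45 CPM) and AW112010 (5.75 CPM). The combination to cisplatin ratio kept Usp17le (0.332), Usp17la (0.330) and Prr5l (0.321) and left out Sv2b (0.361) and Gbp3 (0.361).

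The AU-15330 libraries took no part in the choice, so they show how the same genes stood when AU-15330 was given without cisplatin. With AU-15330 alone, most members were already below their low DMSO level. Of 268 members tested against DMSO, 174 fell, 16 rose and 78 did not pass the test, whereas 37.2% of all tested genes fell and 36.2% rose. The median log2 fold change was -1.99 (-1.95 with the 18 members that were at 0 counts in a group set to the floor) over these members and -0.003 over all tested genes. The unblocked genes had the other direction, with 208 of 269 higher, 4 lower and a median of 1.51. The difference between the 2 sets was not tested, since the sets were chosen on combination values. The DMSO libraries were part of the choice, which took genes low in them. The 6 AU-15330 libraries were all below the 6 DMSO libraries in 99 members (20.7% of tested genes) and all above them in 5, namely Cmpk2, Ifi27l2a, Gbp9, H2-T24 and Gbp8 (30.2% of tested genes). Depth limits these calls. Summed over the AU-15330 libraries, 17 members had 0 reads and 32 had 1 to 3. Many members entered the test through their cisplatin reads, and 78 passed the same filter on the DMSO and AU-15330 libraries alone, of which 55 fell and 7 rose. E130008D07Rik, with a cisplatin mean of 1.04 CPM, was the member not tested.

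**Figure D1:**
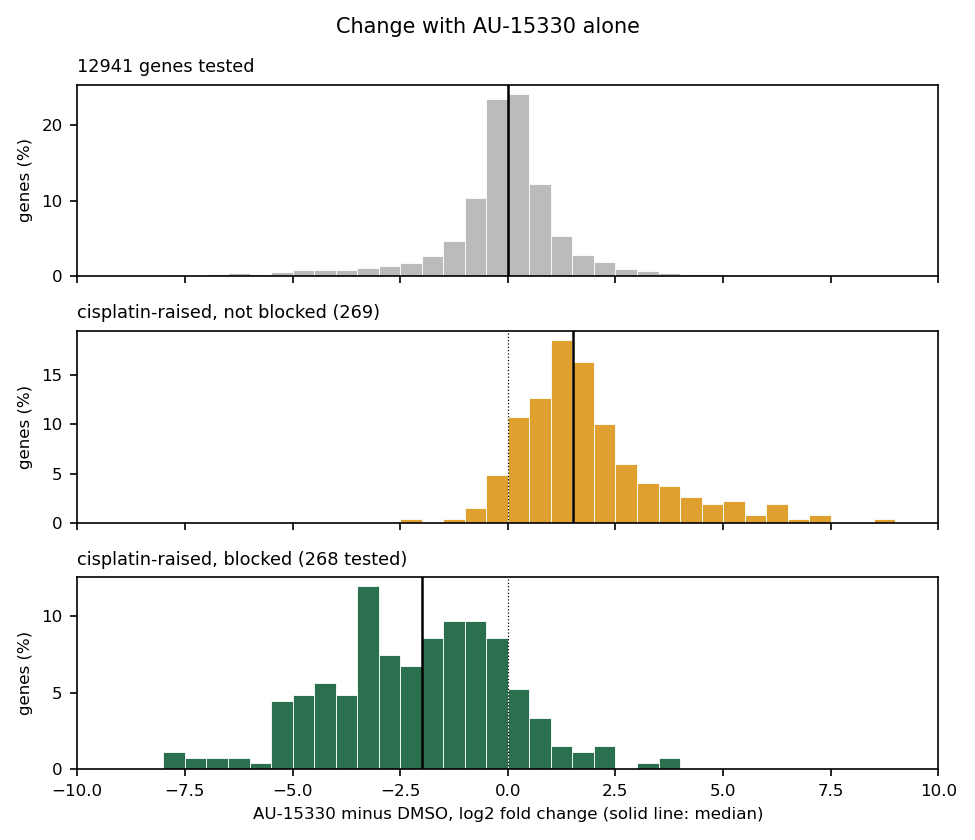
Histograms of the log2 fold change of AU-15330 against DMSO (x axis) as the percentage of genes (y axis) for all 12941 tested genes, the 269 unblocked genes and the 268 blocked genes tested. Solid lines mark medians of -0.003, 1.51 and -1.99, and the dotted line marks no change.

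With cisplatin added to AU-15330, members were partly higher again. Compared with AU-15330 alone, 88 members rose with the combination, 1 (Alppl2, an alkaline phosphatase) fell and 179 did not pass the test, with a median log2 fold change of 0.91 (0.81 with genes at 0 at the floor). Of all tested genes, 22.2% rose and 19.5% fell. Of the unblocked genes, 169 rose and 21 fell. The combination libraries were chosen low against cisplatin. With the replicate number as a block, 90 members rose and 2 fell. All 6 combination libraries were above all 6 AU-15330 libraries in 33 members (16.5% of tested genes). The combination mean was below the DMSO mean in 187 members and above it in 82, a description only. Between the combination and AU-15330 alone, 52 members passed the filter on those 2 groups, of which 25 rose and 1 fell.

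**Figure D2:**
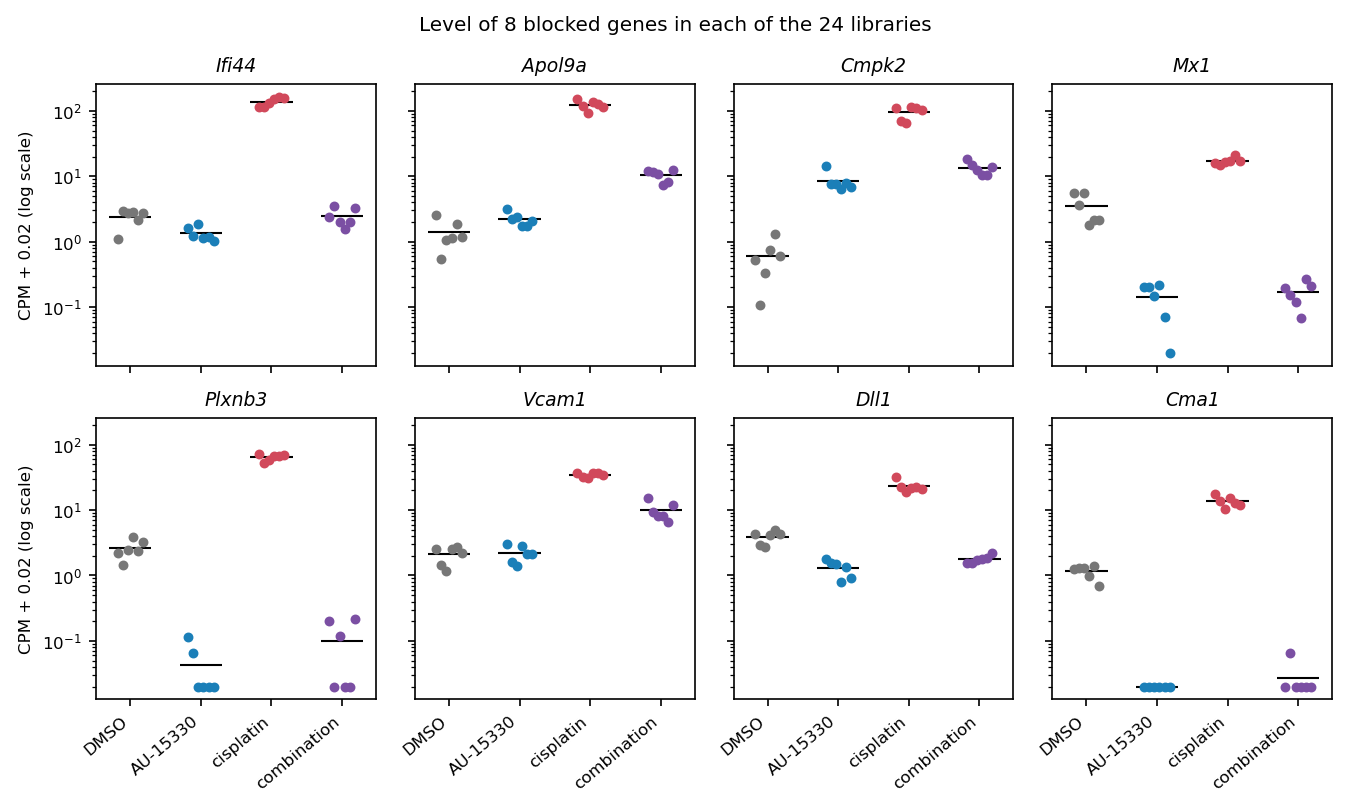
Level of 8 blocked genes in each library as CPM plus 0.02 on a log scale, with 6 points per group and a line at the group mean. Cisplatin points lie above all others in each panel, and with AU-15330 alone Cmpk2 lies above DMSO, Vcam1 overlaps it, and Mx1, Plxnb3, Dll1 and Cma1 lie below it.

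The blocked genes were grouped by what their products are known to do. These 11 roles cover 134 members, and were assigned after the values had been seen, so counts in them carry no test. Each count with AU-15330 alone is to be read beside the 37.2% of all tested genes that fell and the 36.2% that rose, and beside the number of members that passed the low-count filter without the cisplatin libraries. Examples that fall outside the naming rule given with the methods were also chosen after their values were seen.

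**Figure D3:**
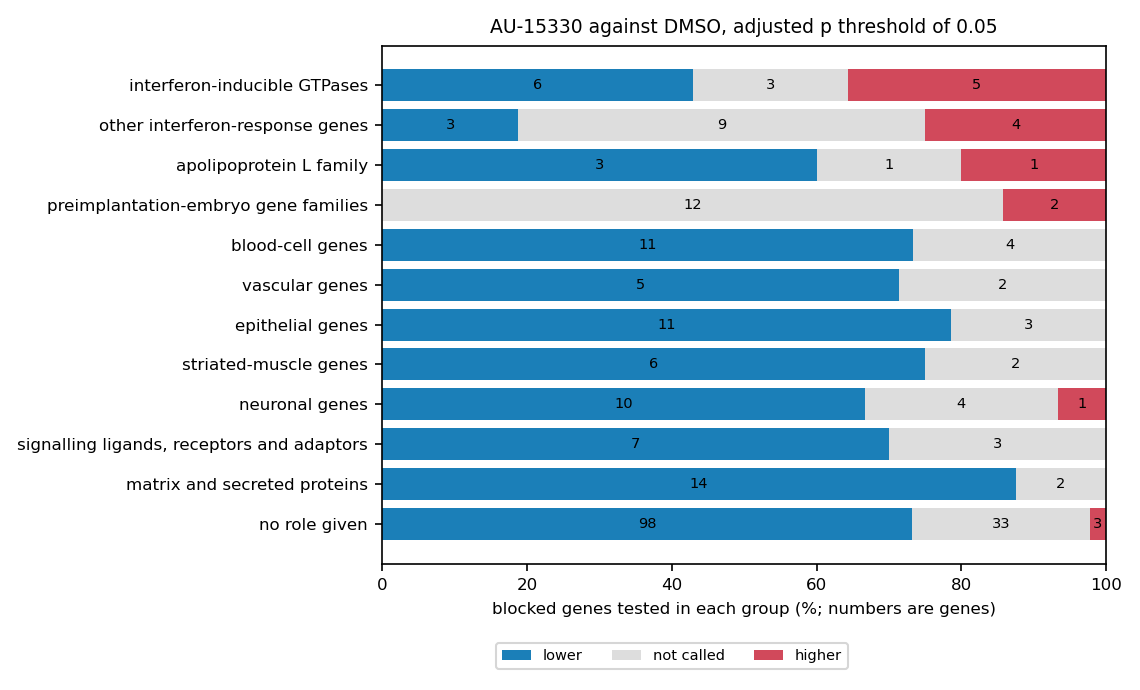
Share of the tested members of each role (x axis, percent, with gene numbers in the bars) that were lower, not called or higher with AU-15330 alone than with DMSO at an adjusted p threshold of 0.05. Interferon roles hold genes in both directions, the early-embryo families hold 2 higher and 0 lower, and 14 of 16 matrix and secreted genes were lower.

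Interferon-response members held genes in both directions with AU-15330 alone, at shares near or below those of all tested genes (36.2% higher, 37.2% lower). Of the 14 interferon-inducible GTPases, proteins that coat and disrupt the membranes around pathogens, 5 rose and 6 fell with AU-15330 alone, and of 16 other interferon-response genes 4 rose and 3 fell. The filter on the DMSO and AU-15330 libraries kept 8 of the GTPase genes, of which 2 rose and 5 fell, and 5 of the other genes, of which 3 rose and 2 fell. CPM is not divided by gene length, so levels below compare groups for 1 gene and not genes with each other. Ifi44 encodes an interferon-induced cytoplasmic protein. Its 6 libraries ran from 1.08 to 2.92 CPM with DMSO (median 2.7), from 1.01 to 1.83 with AU-15330 (median 1.17), from 113 to 161 with cisplatin (median 141) and from 1.56 to 3.52 with the combination (median 2.15). Cisplatin libraries lay far above the others, while combination and DMSO libraries overlapped. Ifi44 fell with AU-15330 alone (log2 change -0.99 ± 0.23, with the SE after ± here and below, adjusted p = 0.000368) and rose by 0.87 ± 0.23 from AU-15330 to the combination (adjusted p = 0.00353).

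Mx1, a dynamin-like GTPase that blocks influenza viruses in mice with an intact allele (C57BL/6 carries a truncated form), was also low in all AU-15330 libraries. It ran from 1.78 to 5.61 CPM with DMSO (median 2.84), from 0 to 0.195 with AU-15330 (median 0.156), from 14.9 to 21.4 with cisplatin (median 16.7) and from 0.0472 to 0.251 with the combination (median 0.157). The AU-15330 and combination libraries overlapped each other and stayed below every DMSO library. With AU-15330 alone, Mx1 fell (log2 change -4.84 ± 0.40, adjusted p = 3.3e-11), and the combination did not differ detectably from it (log2 difference 0.23 ± 0.67, adjusted p = 0.816). Tgtp1 and Tgtp2 encode T-cell-specific GTPases of the IRG family. Tgtp1 ran from 0.841 to 3.33 CPM with DMSO, 0.138 to 0.418 with AU-15330, 19.2 to 34.5 with cisplatin and 0.251 to 0.858 with the combination (medians 2.15, 0.280, 31.8 and 0.411). It fell (log2 change -3.09 ± 0.34, adjusted p = 9.43e-09), and Tgtp2 fell (log2 change -2.33 ± 0.39, adjusted p = 8.34e-06). Reads of Tgtp1 and Tgtp2 could have been split between these near-identical genes by the authors' counting.

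Cmpk2, a mitochondrial nucleotide kinase induced by interferon, showed the other pattern. Its levels were 0.0885 to 1.31 CPM with DMSO (median 0.544), 6.43 to 14.1 with AU-15330 (median 7.59), 66.1 to 115 with cisplatin (median 105) and 10.4 to 18.2 with the combination (median 13.1). Every AU-15330 library was above every DMSO library and below every cisplatin library. Cmpk2 rose with AU-15330 alone by 3.73 ± 0.31 on the log2 scale (adjusted p = 3.96e-11). The guanylate-binding proteins Gbp9 (3.11 ± 0.30, adjusted p = 9.65e-10) and Gbp8 (2.33 ± 0.52, adjusted p = 0.000278), the small mitochondrial protein gene Ifi27l2a (2.17 ± 0.26, adjusted p = 4.34e-08) and Zbp1, a sensor of Z-form nucleic acids (2.28 ± 0.69, adjusted p = 0.00446), rose with AU-15330 alone as well. Zbp1 had only 4 reads with DMSO and 24 with AU-15330, and was tested only through its cisplatin reads. Gbp6, whose cisplatin libraries ran from 14.5 to 33.9 CPM, did not pass this test (log2 difference 0.43 ± 0.45, adjusted p = 0.384), and its DMSO (0.105 to 0.622) and AU-15330 libraries (0.184 to 0.876) overlapped.

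Some interferon-response members were near 0 in every group but cisplatin. Iigp1, an IRG family GTPase, had 0 reads in the 6 DMSO libraries and 5.32 to 9.86 CPM with cisplatin, at least 333-fold higher when the DMSO group is set to 3 counts. With AU-15330 alone it had 8 reads in all, and its call as higher (adjusted p = 0.0281) was lost without replicate 1 (adjusted p = 0.143) or 5 (adjusted p = 0.0621). Gm4951, another IRG gene, had 1 read with DMSO and 8 with AU-15330, and its call as higher (adjusted p = 0.049) was lost in 5 of 6 fits that left out a replicate number. Slfn2 of the Schlafen family averaged 7.18 CPM with cisplatin and between 0.0243 and 0.167 CPM in the other groups. Slfn8 (3.15 CPM with cisplatin), Phf11d (14.8 CPM), Phf11b (2.57 CPM) and the death ligand gene Tnfsf10 (1.73 CPM) did not pass the test of AU-15330 against DMSO, with adjusted p-values of 0.453, 0.162, 0.0728 and 0.942. Ly6e, a membrane protein of the Ly6 family, fell with AU-15330 alone (log2 change -2.97 ± 0.47, adjusted p = 3.49e-06). It was tested only through its cisplatin reads.

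A list of 75 interferon-stimulated genes held blocked and unblocked genes, sets chosen on combination values, and their difference was not tested. The rule counted 32 genes of the list as higher with cisplatin, of which 16 were blocked and 16 unblocked. With AU-15330 alone, 56 of the 72 tested genes of the list rose and 8 fell (median log2 fold change 2.39, and 2.32 with 2 genes at 0 at the floor). Among the 16 unblocked genes, 16 rose and 0 fell, and among the 16 blocked genes 5 rose, 5 fell (Mx1, Ifi44, Tgtp1, Tgtp2 and Ly6e) and 6 did not pass, beside 36.2% higher and 37.2% lower of all tested genes. The 3 other genes of the list that fell were Ifi47, Lgals9 and Ifi204. Ifi47, an IRG GTPase left out of the blocked set by its DMSO mean of 6.08 CPM, averaged 0.994 CPM with AU-15330, 50.9 with cisplatin and 2.10 with the combination. Isg15, a ubiquitin-like protein conjugated to viral and host proteins and an unblocked gene, averaged 2.43 CPM with DMSO, 375 with AU-15330, 160.4 with cisplatin and 270 with the combination. The ISRE core was present in 9 of 13 promoter windows of blocked genes of the list and in 22 of 59 windows (37.3%) of its other genes.

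**Figure D4:**
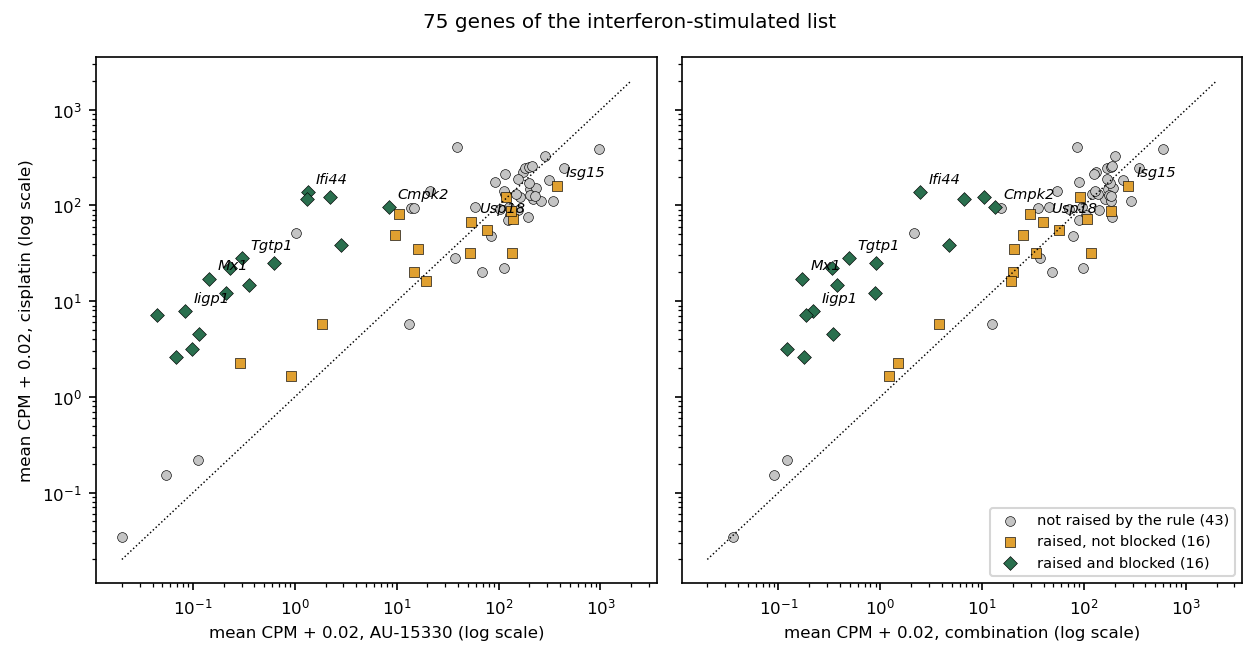
Mean CPM plus 0.02 with cisplatin (y axis, log scale) against that with AU-15330 (left, x axis, log scale) and with the combination (right) for 75 interferon-stimulated genes, each point 1 gene. The 16 blocked genes lie above the dotted line of equal levels in both panels, a position the rule fixed in the right panel, and with AU-15330 Isg15, an unblocked gene, lies below it.

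The apolipoprotein L family, proteins related to the human trypanosome lytic factor, held 5 members. Apol9a ran from 0.531 to 2.50 CPM with DMSO (median 1.14), from 1.69 to 3.16 with AU-15330 (median 2.12), from 93.2 to 149 with cisplatin (median 123) and from 7.36 to 12.3 with the combination (median 11.1). Every combination library was above every AU-15330 library and below every cisplatin library. From AU-15330 to the combination, Apol9a rose by 2.22 ± 0.20 (log2, adjusted p = 3.66e-09) and Apol9b by 2.34 ± 0.29 (adjusted p = 4.1e-07). With AU-15330 alone, Apol9a rose by 0.61 ± 0.25 (adjusted p = 0.0324), a call lost without replicate 2 (adjusted p = 0.129), 3 (0.105) or 6 (0.0739) and with only the 2 groups in the fit (0.0912). Apol9b did not pass (log2 difference -0.53 ± 0.33, adjusted p = 0.157). Given the identical promoters and similar sequences of this pair, reads may have been assigned to either gene. Apol10b fell with AU-15330 alone (log2 change -3.31 ± 0.50, adjusted p = 1.71e-06). Apol7e and Apol11b had 0 reads with AU-15330 against 14 and 5 over the 6 DMSO libraries, at least 4.58-fold and 1.63-fold lower (adjusted p = 0.000145 and 0.0143), and such a difference from 5 reads is at the limit of this depth. The filter on the DMSO and AU-15330 libraries kept 3 of the 5 members, of which 1 fell and 0 rose.

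Some members stood close together in the genome. In GRCm38.p6, 61 of 265 placed members lay within 200 kb of another member. Of 269 unblocked genes, 68 lay within 200 kb of another unblocked gene, a slightly larger share. Such closeness was therefore not particular to the members, and no share over all genes is given. Apol9a, Apol10b, Apol11b, Apol7e and Apol9b lay in 333 kb of chromosome 15. The GTPase genes Gbp8, Gbp9, Gbp4, Gbp10 and Gbp6 lay in 283 kb of chromosome 5, and Gm5431, Gm12185, 9930111J21Rik1, Tgtp1 and Tgtp2 in 177 kb of chromosome 11. Within the Gbp cluster, Gbp8 and Gbp9 rose with AU-15330 alone whereas Gbp4, Gbp6 and Gbp10 did not pass the test. The family members Gbp2, Gbp3, Gbp5 and Gbp7, which lie on chromosome 3, were unblocked. This split depends in part on the limits, since Gbp3 missed the combination limit with a ratio of 0.361. Gbp11, also on chromosome 5, missed the cisplatin limit with 0.814 CPM and averaged 0.0391 CPM with the combination.

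Some genes of families known from the preimplantation embryo met the rule, which fixed that they were higher with cisplatin. This role held 14 members, namely the 5 Usp17l genes of the table, which encode deubiquitinases, Zscan4c and Zscan4d, which encode zinc finger proteins active at telomeres, Zscan4a, listed as a transcribed pseudogene, Zfp352, Tdpoz8, and 4 Pramel-related genes (Pramef25, Gm12794, Gm13078 and BC080695). Usp17la ran from 0.0568 to 1.08 CPM with DMSO (median 0.825), 0.730 to 2.51 with AU-15330 (median 1.07), 5.55 to 9.49 with cisplatin (median 7.27) and 1.60 to 3.45 with the combination (median 2.52). The cisplatin libraries were apart from the rest, whereas AU-15330 libraries overlapped both DMSO and combination libraries. Zscan4c ran from 0.0568 to 0.390 CPM with DMSO (median 0.134), 0 to 0.186 with AU-15330 (median 0.118), 0.809 to 2.42 with cisplatin (median 1.59) and 0 to 0.316 with the combination (median 0.137). DMSO, AU-15330 and combination libraries of Zscan4c overlapped at or near the level of 3 reads.

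With AU-15330 alone 2 of the 14 early-embryo members rose, 0 fell and 12 did not pass edgeR's test. They had 16 to 97 reads over the 6 DMSO libraries, and 2 passed the filter on the DMSO and AU-15330 libraries, of which 1 rose. Usp17le rose (log2 difference 1.76 ± 0.36, adjusted p = 8.94e-05), as did Usp17ld (1.05 ± 0.42, adjusted p = 0.0296). Usp17le passed that filter, whereas Usp17ld, with 21 reads with DMSO and 48 with AU-15330, was tested only through its cisplatin reads. From AU-15330 to the combination 2 rose, Usp17la (0.92 ± 0.30, adjusted p = 0.0159) and Usp17lb (0.87 ± 0.39, adjusted p = 0.046). Not every gene of these families had this order of groups. Among genes that averaged at least 0.1 CPM in a group, cisplatin was the highest group for 5 of 5 Zscan4, 5 of 5 Usp17l and 3 of 5 Pramef genes. Pramef8 averaged 35.9 CPM with DMSO, 124.9 with AU-15330, 46.2 with cisplatin and 65.2 with the combination, and Pramef12 had 0 reads with cisplatin. The other Zscan4 genes of the table missed the cisplatin limit, with cisplatin means of 0.927 CPM for Zscan4b and 0.764 for Zscan4f. Tcstv1 and Tcstv3, expressed at the same embryonic stage, averaged 0.657 and 0.677 CPM with cisplatin and at most 0.141 in the other groups. Dux, which encodes a transcription factor that switches on these families in the embryo, had 1, 4, 7 and 4 reads over the 6 libraries of DMSO, AU-15330, cisplatin and the combination, too few to compare. Reads of these multicopy genes could have been split or dropped by the authors' counting, so their levels are uncertain.

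**Figure D5:**
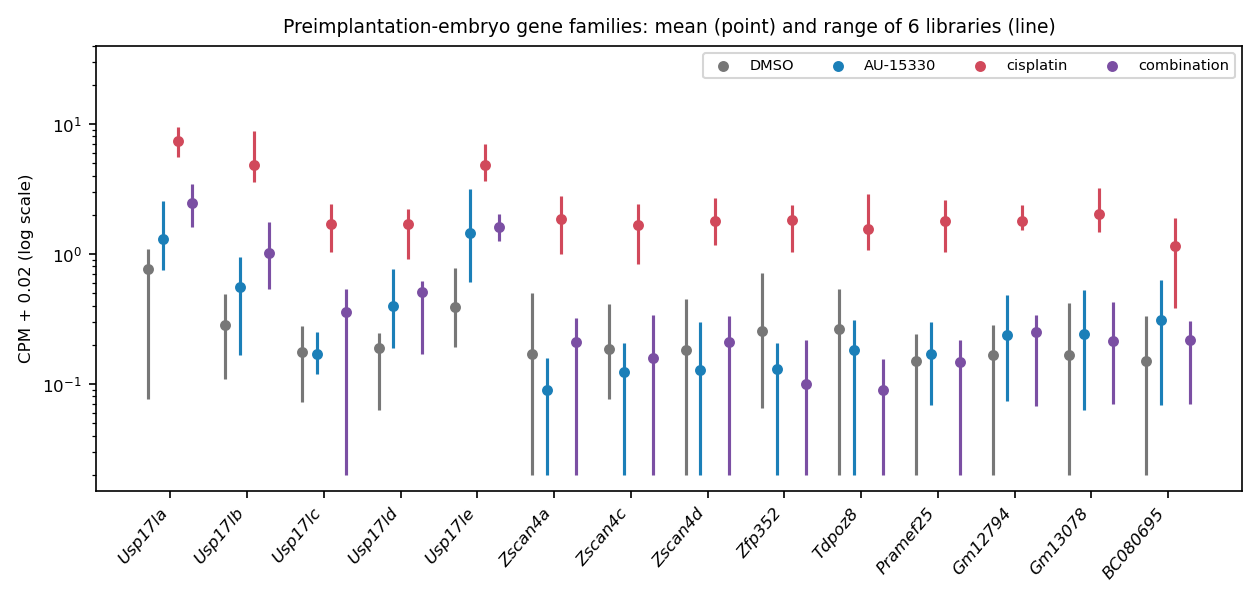
Mean (point) and range over 6 libraries (line) of CPM plus 0.02, on a log scale, for the 14 members of preimplantation families in each of 4 groups. Cisplatin ranges lie above those of the other groups for all but BC080695, where they overlap.

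Genes known from blood cells formed a further group. Of 15 such members, 11 fell with AU-15330 alone (37.2% of tested genes), 0 rose and 4 did not pass. Of the 15, 1 (Cma1) passed the filter on the DMSO and AU-15330 libraries, and it fell. The others, Spn and Lcp1 among them, entered this test only through the other groups. Spn also did not pass the filter on the combination and AU-15330 libraries. Cma1, a mast cell chymase, ran from 0.666 to 1.36 CPM with DMSO (median 1.27) and from 10.4 to 17.7 with cisplatin (median 13.3). It had 0 reads in the 6 AU-15330 libraries, at least 47.7-fold lower than with DMSO (adjusted p = 3.49e-11), and 1 read in the 6 combination libraries. Spn, the leukocyte sialoglycoprotein CD43, ran from 0.178 to 1.05 CPM with DMSO, 0 to 0.0487 with AU-15330, 7.68 to 8.94 with cisplatin and 0.0903 to 0.302 with the combination (medians 0.644, 0, 8.34 and 0.164). The 85 reads with DMSO against 1 with AU-15330 gave a ratio of 84.3 (95% counting interval 14.7 to 3367, adjusted p = 2.17e-09), and Spn rose from there to the combination, with 23 reads (ratio 22.9, interval 3.72 to 945, adjusted p = 0.000336). Lcp1, an actin-bundling protein of leukocytes, fell with AU-15330 alone (log2 change -4.13 ± 0.52, adjusted p = 9.32e-08), while Rac2, a GTPase of blood cells with a cisplatin mean of 6.26 CPM, did not pass (log2 difference -0.16 ± 0.48, adjusted p = 0.77). Markers that define blood cells were at or near 0 in these libraries. Of 9 immune markers, Ptprc, Cd3e, Adgre1, Itgam, Ncr1, Nkg7, Lyz2 and Csf1r averaged at most 0.0827 CPM in any group, with 4 at 0 with DMSO, 3 with AU-15330, 2 with cisplatin and 1 with the combination. Cd68 made up the rest, and the summed level ran from 6.17 to 17.7 CPM with DMSO, 17.5 to 54.2 with AU-15330, 7.02 to 12.9 with cisplatin and 25.0 to 44.3 with the combination. The 4 globin genes of the erythroid list had 0 reads in all libraries.

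Of 7 vascular members, 5 fell with AU-15330 alone (37.2% of tested genes) and 2, Vcam1 and Mcam, did not pass. Of the 7, 2 passed the filter on the DMSO and AU-15330 libraries, and 0 of these were called. Vcam1, an adhesion receptor for leukocytes and a target of NF-kB, ran from 1.17 to 2.72 CPM with DMSO (median 2.36), 1.36 to 3.02 with AU-15330 (median 2.11), 31.1 to 36.7 with cisplatin (median 35.2) and 6.58 to 15.1 with the combination (median 8.81). AU-15330 and DMSO libraries overlapped (log2 difference -0.07 ± 0.23, adjusted p = 0.8, and above 0 with scaling by total counts), and every combination library was above them. From AU-15330 to the combination Vcam1 rose by 2.18 ± 0.21 (log2, adjusted p = 7.19e-09). Ptprb, an endothelial phosphatase, fell with AU-15330 alone (log2 change -2.69 ± 0.38, adjusted p = 4.64e-07), and the C-type lectin gene Cd93 fell (-3.03 ± 0.59, adjusted p = 5.04e-05). Ptprb had 124 reads with DMSO and 20 with AU-15330, and Cd93 57 and 7, and both entered the test only through the other groups. Of 4 endothelial markers, Cdh5, Kdr and Tek averaged at most 0.267 CPM, none was at 0 in all libraries of a group, and the summed level, mostly Pecam1, ran from 2.61 to 4.09 CPM with DMSO, 0.267 to 0.779 with AU-15330, 8.67 to 12.5 with cisplatin and 0.497 to 1.24 with the combination. Its part in the result was not tested.

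Epithelial genes were lower with AU-15330 alone in 11 of 14 members (37.2% of tested genes), and none was higher. Of the 14, 3 passed the filter on the DMSO and AU-15330 libraries, and 3 of these fell. Krt7 and Cdh1 were not among them and entered the test only through the other groups. Cdh1 also did not pass the filter on the combination and AU-15330 libraries. Krt7, a simple-epithelium keratin, ran from 0.404 to 2.36 CPM with DMSO (median 1.23), 0 to 0.0994 with AU-15330 (median 0.0213), 4.23 to 5.04 with cisplatin (median 4.69) and 0 to 0.224 with the combination (median 0.0493). It fell with AU-15330 alone (log2 change -5.12 ± 0.57, adjusted p = 1.19e-08). Cdh1, the adhesion molecule E-cadherin, ran from 0.303 to 1.08 CPM with DMSO, 0 to 0.320 with AU-15330, 2.30 to 3.65 with cisplatin and 0.339 to 0.850 with the combination (medians 0.744, 0.165, 3.51 and 0.474). Its AU-15330 and DMSO libraries overlapped slightly, and it fell (log2 change -2.29 ± 0.41, adjusted p = 1.67e-05) and rose again by 1.73 ± 0.42 with the combination (adjusted p = 0.0019). Of the epithelial and mesothelial list, 11 of 12 tested genes fell with AU-15330 alone and 1 rose (37.2% and 36.2% of all tested genes), and the rule counted Krt7 and Cdh1 as blocked and Muc1 as unblocked. Scgb3a1, a secreted airway protein, Septin12, Sycn, a pancreatic granule protein, and Ttc22 had 0 reads in the 6 AU-15330 libraries against DMSO means of 0.805, 0.750, 1.05 and 0.586 CPM, at least 33.8-fold, 31.5-fold, 44.3-fold and 24.6-fold lower (adjusted p = 4.45e-10, 1.77e-08, 8.93e-09 and 1.68e-05). Sycn also had 0 reads with the combination.

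Among genes of muscle and neurons, more members were lower than higher. With AU-15330 alone, 6 of 8 striated-muscle members and 10 of 15 neuronal members fell (37.2% of tested genes), 0 and 1 rose, and 2 and 4 did not pass. The filter on the DMSO and AU-15330 libraries kept 1 and 6 of them, of which 1 and 5 fell. Plxnb3, a semaphorin receptor of the nervous system, ran from 1.42 to 3.85 CPM with DMSO (median 2.41), 0 to 0.0929 with AU-15330 (median 0), 52.6 to 72.1 with cisplatin (median 67.4) and 0 to 0.194 with the combination (median 0.0495). AU-15330 and combination libraries overlapped near 0 and stayed below every DMSO library. The 334 reads with DMSO against 3 with AU-15330 gave a ratio of 110 (counting interval 37.4 to 538, adjusted p = 1.39e-12). Srpk3, a muscle protein kinase that lies next to Plxnb3 on the X chromosome, averaged 3.53 CPM with cisplatin and 0.225 with DMSO and had 0 reads with AU-15330 and with the combination. Myom2, a protein of the sarcomere M-band, averaged 16.5 CPM with cisplatin and fell with AU-15330 alone (log2 change -2.96 ± 0.39, adjusted p = 2.18e-07). Robo2, a receptor for the guidance cue SLIT, was the neuronal member that rose (1.55 ± 0.44, adjusted p = 0.00246).

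Among signalling genes, 7 of 10 members fell with AU-15330 alone (37.2% of tested genes) and 0 rose, and 3 passed the filter on those 2 groups, of which 3 fell. Il33 and Traf1 did not pass it, nor the filter on the combination and AU-15330 libraries. Both were tested only through their cisplatin reads. Dll1, a ligand of Notch receptors, ran from 2.74 to 5.03 CPM with DMSO (median 4.19), 0.779 to 1.77 with AU-15330 (median 1.42), 18.8 to 32.2 with cisplatin (median 21.9) and 1.52 to 2.18 with the combination (median 1.72). The combination libraries were below every DMSO library and overlapped those of AU-15330. Dll1 fell with AU-15330 alone (log2 change -1.69 ± 0.18, adjusted p = 5.04e-09). Il33, a nuclear alarmin cytokine, fell (log2 change -2.7 ± 0.34, adjusted p = 7.39e-08) and rose by 2.30 ± 0.35 from AU-15330 to the combination (adjusted p = 7.8e-06). Traf1, an adaptor of TNF receptors, did not pass with AU-15330 alone (log2 difference -1.29 ± 0.59, adjusted p = 0.0539; 0.0172 by DESeq2) and rose to the combination by 2.64 ± 0.50 (adjusted p = 0.000144). Of 38 genes of an inflammatory and NF-kB list, 28 were tested, of which 8 rose and 12 fell with AU-15330 alone, near the 36.2% and 37.2% of all tested genes, and 21 rose and 2 fell from AU-15330 to the combination, beside 22.2% and 19.5%. Its 4 blocked members, Vcam1, Il33, Traf1 and Tnfsf10, gave 1 lower with AU-15330 alone (Il33) and 3 higher with the combination.

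Of 16 genes of matrix and secreted proteins, 14 fell with AU-15330 alone (37.2% of tested genes), and 7 passed the filter on those 2 groups, of which 6 fell. Cemip, which degrades hyaluronan, ran from 3.52 to 5.30 CPM with DMSO (median 4.57), 0.267 to 0.830 with AU-15330 (median 0.548), 17.7 to 26.2 with cisplatin (median 22.5) and 0.330 to 1.16 with the combination (median 0.625). Its AU-15330 and combination libraries overlapped, all below those of DMSO. Cemip fell with AU-15330 alone (log2 change -3.04 ± 0.22, adjusted p = 1.78e-12), and from there the combination differed by 0.12 ± 0.27 (adjusted p = 0.753). The basement membrane gene Nid1 fell (log2 change -4.19 ± 0.23, adjusted p = 1.09e-14) and the microfibril gene Fbn1 fell (-2.72 ± 0.24, adjusted p = 8.43e-11). C4b, a complement component and the sole member on a list of acute-phase and liver-type genes, averaged 2.61 CPM with cisplatin and did not pass with AU-15330 alone (adjusted p = 0.429). Of the 9 tested genes of that list of 26, 7 fell with AU-15330 alone and 0 rose (median log2 fold change -7.02). C4b itself had 8 reads with DMSO and 5 with AU-15330.

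The other 135 members were given no role. Of the 134 tested, 98 fell with AU-15330 alone, 3 rose and 33 did not pass (37.2% and 36.2% of all tested genes fell and rose). The filter on the DMSO and AU-15330 libraries kept 37 of these members, of which 28 fell and 1 rose. It did not keep Pigz, Ctse or Tslrn1, and neither did the filter on the combination and AU-15330 libraries. These genes were tested only through their cisplatin reads. Calr4, an endoplasmic reticulum chaperone related to calreticulin, ran from 1.86 to 3.64 CPM with DMSO and 7.22 to 10.4 with cisplatin, and its 1 read with AU-15330 against 334 with DMSO gave a ratio of 331 (counting interval 59.0 to 13117, adjusted p = 3.85e-15). Pigz, an enzyme of glycosylphosphatidylinositol anchor synthesis, averaged 0.137 CPM with DMSO, 13 with cisplatin and 0.188 with the combination, and had 1 read with AU-15330 against 18 with DMSO (ratio 17.8, counting interval 2.82 to 744, adjusted p = 0.00593) and 24 with the combination (ratio 23.9, interval 3.90 to 984, adjusted p = 0.00497). Ctse, an aspartic protease, and Tslrn1 had 0 reads with AU-15330 and 7 and 9 reads with the combination, calls of a rise (adjusted p = 0.0175 and 0.0346) that were lost without replicate 6 for Ctse (adjusted p = 0.0636) and without replicate 1 (0.13), 3 (0.053), 4 (0.0577) or 5 (0.0631) for Tslrn1. Alppl2, with 3.01 times more CPM with cisplatin than with DMSO, fell with AU-15330 alone (log2 change -2.59 ± 0.22, adjusted p = 4.95e-11) and was lower still with the combination than with AU-15330 (-0.98 ± 0.29, adjusted p = 0.00802).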

How the data were processed

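Polyadenylated RNA of 24 libraries (4 groups of 6) was read as single-end reads of 70 bp from directional libraries. The authors deposited raw counts per gene for 25229 symbols in 48 lane columns, of which 0 matched no library, and 2 lanes were summed per library. Per the labels' processing notes, STAR 2.7.1a, DESeq2 1.36.0 and build mm10 were used. The counting tool, strand setting and annotation are not given in the sources used here. Counting without strand would mix overlapping genes, and reads of near-identical genes may be split or lost.

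CPM used library totals. Fold changes came from edgeR 4.0.16 (R 4.3.3) with TMM scaling, filterByExpr (12941 genes kept), a single fit of 4 group means, quasi-likelihood tests (20 residual df) and Benjamini-Hochberg adjustment over all tested genes, with a threshold of 0.05. The SE is the log2 fold change divided by the square root of F. Ratios with 1 to 3 reads have exact binomial 95% intervals, which cover counting error only, since the reads carry no molecular identifiers. The script was tested on simulated data. Deviations of same-numbered libraries from their group means correlated at 0.163 to 0.594 between AU-15330 and the combination, which was taken as pairing, and at 0.0542 to 0.279 between AU-15330 and DMSO, which was not. These ranges overlap. Single-gene values of both comparisons come from the fit without the replicate block unless stated otherwise.

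Members and lists were chosen with earlier results of these data known, and roles after values were seen. Named members were the 12 highest with cisplatin, the 6 largest ratios of cisplatin to DMSO at 5 CPM or more, the 6 highest and 6 lowest called changes with AU-15330 and 4 and 4 for the combination against it, genes of the lists, and 3 genes on each side of each limit. A marker and a gene near a limit are not reported here. Alternatives numbered 12 for the tests, among them DESeq2 1.42.0, and 11 for the rule. RefSeq matched 265 members by symbol, of which 246 are protein coding, and supplied windows and positions in GRCm38.p6, the patched form of the build named above.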

Additional observations from a re-analysis of the deposited data

Results flagged for a closer look

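In 16 of 160 groups of 6 libraries of the named members, 1 library stood apart from the other 5, where chance gives about 8 for normally spread values. Groups with few reads are not so spread, and reads in 1 library alone give a gap ratio of 1 by construction. The 16 can therefore not be compared with the 8. For each, the gap to the nearest library divided by the range exceeded Dixon's critical value of 0.625, and the library was the highest of its group. Replicate numbers 1 to 6 held 2, 1, 0, 3, 5 and 5 of them.

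With AU-15330, Cmpk2 had 14.1 CPM in replicate 1 against 7.81 in the next library (gap ratio 0.821). Phf11d had 0.845 against 0.277 CPM in replicate 5 with AU-15330 (0.805), and 0.653 against 0.358 CPM in replicate 5 with the combination (0.691). With cisplatin, Dll1 had 32.2 against 22.4 CPM in replicate 1 (0.733), and Mx1 had 21.4 against 17.3 CPM in replicate 5 (0.625 after rounding). In replicate 6 of the combination, Alppl2 had 0.823 against 0.452 CPM (0.729) and Ttc22 had 0.145 against 0.0452 CPM (0.689).

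The others rest on few reads. With DMSO, Traf1 had 0.520 against 0.266 CPM in replicate 4 (0.739) and Slfn8 had 0.133 against 0.0449 CPM in replicate 6 (0.663). Gm4951 had 0.149 against 0.0534 CPM in replicate 5 with AU-15330 (0.898). A gap ratio of 1, reads in 1 library of 6, was found for Gm4951 and Tnfsf10 with DMSO (0.0433 CPM in replicate 4 and 0.133 CPM in replicate 6), for Pigz, Calr4 and Spn with AU-15330 (0.0497 CPM in replicate 5, 0.0534 in replicate 6 and 0.0487 in replicate 4) and for Cma1 with the combination (0.0452 CPM in replicate 2).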

How the results depend on the processing

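Of 23 alternatives, 12 concerned the tests and 11 the rule. The rule gave 147 members at 5-fold, 178 with a cisplatin mean of at least 2 CPM, and 258 to 273 without 1 replicate number. Fitting only the 2 groups compared left fewer members to test, 78 and 52, and called 62 with AU-15330 alone (7 higher, 55 lower) and 26 for the combination against AU-15330 (25 higher). Leaving out each replicate number gave 177 to 191 calls with AU-15330 alone (12 to 16 higher, 164 to 179 lower) and 66 to 85 for the combination (64 to 83 higher, 1 to 2 lower). The number of members lower with the combination was 3 with DESeq2. With the replicate number as a block, 193 members were called with AU-15330 alone (17 higher, 176 lower) and 92 for the combination (90 higher, 2 lower), and 10 of 24 libraries correlated best with their own number. Under the block Traf1 was called lower with AU-15330 alone (adjusted p = 0.0459). Scaling by total counts moved the median log2 change of all genes with AU-15330 from -0.003 to 0.13. Of single-gene results, 653 kept direction and call, 23 lost the call, 7 gained it and 5 turned. With AU-15330 alone, the log2 change of Vcam1 was 0.057 with total counts, and -0.14 to 0.015 without 1 replicate number. That of Tnfsf10 was 0.012 with total counts and -1.25 to 2.52 without 1 number, and that of Slfn8 -0.35 to 1.88. None of these 3 genes passed the test in those fits, and the cause was not tested. Groups with 3 reads or fewer limit the genes near 0.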
